A study of Mus musculus with 2 samples.

Results

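The collagen chain genes are the mouse protein-coding genes whose symbol is Col, a number, the letter a and a number. There are 44 of them among 21938 protein-coding genes of GENCODE release M21 on build mm10, and each was read for accessible chromatin at its promoters and at distal sites. Accessibility was measured by DNase-seq, which sequences the ends of DNA fragments that the nuclease DNase I releases from nuclei, in the gastrocnemius, a calf muscle. The 2 libraries, replicates 1 and 2, each come from a male mouse of strain B6CASTF1/J aged 25 days, with no treatment named in the labels. Both carry the same donor identifier, and that they stem from separate animals rests on the sample descriptions, which number different males. There is 1 group, so nothing below is a comparison of conditions, and with 1 library per animal no test between the animals could be made. The genome used for annotation and sequence is that of C57BL/6J, and alleles of the cross were not told apart.

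Collagens are secreted proteins of 3 chains wound into a triple helix. Fibrillar chains build the banded fibres of connective tissue, type IV chains the sheet of the basement membrane around each muscle fibre, and type VI chains the beaded filaments between them. In skeletal muscle most of these chains are known to be made by fibroblasts, vessels and Schwann cells rather than by the muscle fibres, and a few, such as Col13a1, Col22a1 and Col25a1, have known roles at junctions with nerve or tendon.

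A promoter peak is a peak of the authors' longer list that touches the 1 kb on either side of any annotated transcription start of a gene. A distal peak lies inside the gene or within 20 kb of it and touches no such window of any annotated gene. Peak signal is a value given by the authors. No source used here states its unit, and it was read from the values as a tag density. For a gene with several promoter peaks the highest signal is given. Replicate 1 had 97499 peaks and replicate 2 had 61664, and the tags implied by the step between signal values were 169 M and 117 M. Footprints, short protected stretches inside open chromatin, numbered 243784 and 171389. Of all protein-coding genes, 66.5% had a promoter peak in the first library, 64.2% in the second and 63.0% in each of them. Of the marker genes, those of skeletal muscle were open in both libraries at 5 of 5, endothelium at 5 of 5, fibroblasts at 4 of 5, smooth muscle and pericytes at 4 of 4, tendon, Schwann cells and cartilage at 2 of 3 each, leukocytes at 1 of 3 and liver at 0 of 3. The tissue is a mixture, and in bulk data fewer cells of a type and less open chromatin per cell cannot be told apart. The part of cell shares in the values below was not tested.

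Of the 44 collagen chain genes, 36 (81.8%, against 66.5% of all coding genes) were open at a promoter in replicate 1, 33 (75%, against 64.2%) in replicate 2, and 32 (72.7%, against 63.0%) in both. On the authors' stricter peak list the order turned, with 24 of the 44 (54.5%) open in both against 57.7% of all coding genes. Most of the open promoters were weak. The 32 include pairs of neighbours that share peaks, Col4a1 with Col4a2 and Col4a3 with Col4a4. The median signal of the 32 was 1.66 in replicate 1 and 1.26 in replicate 2, against 3.82 and 3.49 for all 13818 genes open in both. Of the 32, 29 lay below the all-gene median in each library, and 3 lay above it in each, Col6a2, Col16a1 and Col1a1. A footprint lay within 1 kb of a start in both libraries at 31 members (70.5%), against 61.5% of all protein-coding genes. Across the 32 members, promoter signals of the libraries had a Spearman's rho of 0.874 and, on the log2 scale, a Pearson's r of 0.887, where all 13818 genes had 0.940 and 0.950. These are descriptions across genes of the same libraries, and the members that share a peak are not separate points.

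**Figure D1:**
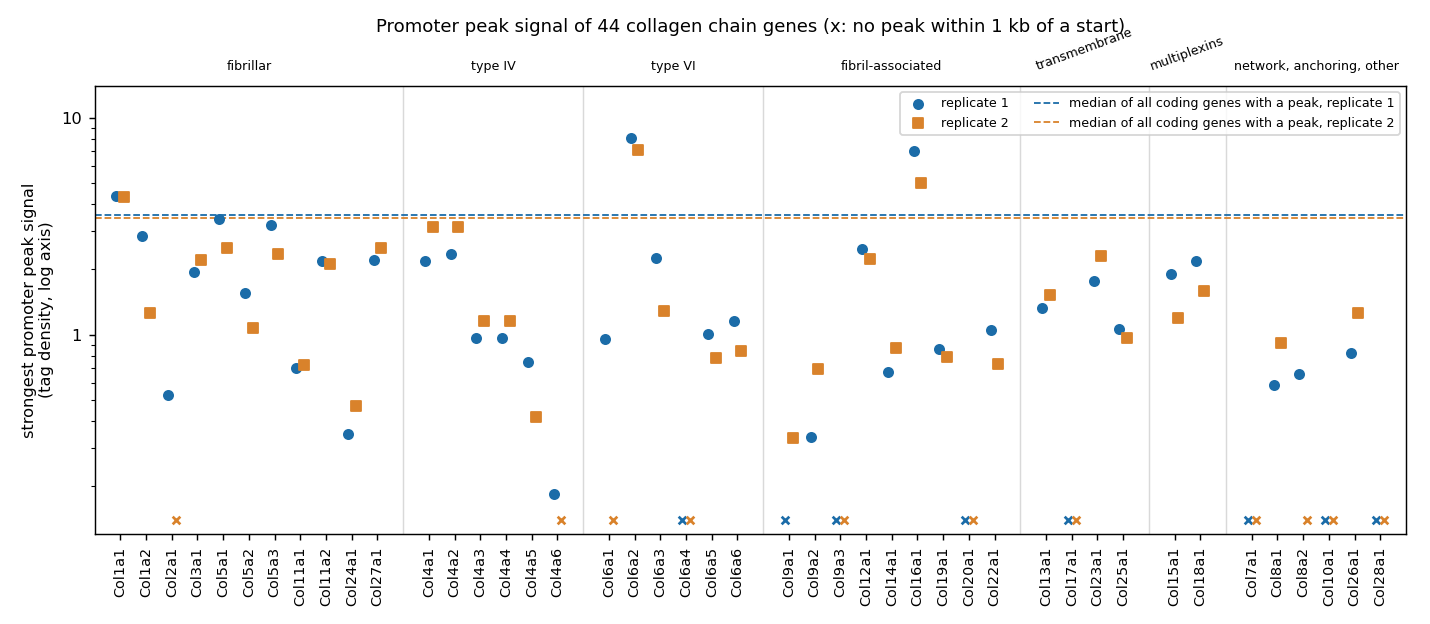
The signal of the strongest promoter peak (tag density, log axis) for each of the 44 genes, grouped by class, with a circle for replicate 1 and a square for replicate 2; a cross at the foot of the plot stands for no promoter peak, and dashed lines give the median of all coding genes open in that library (3.57 and 3.43). Col6a2, Col16a1 and Col1a1 sit above the lines in both libraries, and 7 genes have crosses for both.

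Sequence is shown for promoters on which the text turns: Col1a1 and Col16a1 as 2 of the strongest, Col18a1 as an internal start, and Col4a3 with Col4a4 as a pair of genes that start back to back. Each is the stretch just before the annotated start, with exons left out, 5′ to 3′ on the strand of the gene (for the pair, of Col4a3), from the mm10 genome. Capitals mark bases inside footprints of both libraries, which cover 37 of 180 bases for Col1a1, 25 of 65 for Col16a1, 31 of 180 for Col18a1 and 0 of 71 for the pair.
Col1a1, chr11:94936044-94936223 (plus strand): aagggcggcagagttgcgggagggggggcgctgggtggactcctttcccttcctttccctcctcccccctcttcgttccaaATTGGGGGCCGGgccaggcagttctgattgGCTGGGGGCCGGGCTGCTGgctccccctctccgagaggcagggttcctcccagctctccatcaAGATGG
Col16a1, chr4:130047775-130047839 (plus strand): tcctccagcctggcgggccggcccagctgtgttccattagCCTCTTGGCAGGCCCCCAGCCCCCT
Col18a1, chr10:77113947-77114126 (minus strand): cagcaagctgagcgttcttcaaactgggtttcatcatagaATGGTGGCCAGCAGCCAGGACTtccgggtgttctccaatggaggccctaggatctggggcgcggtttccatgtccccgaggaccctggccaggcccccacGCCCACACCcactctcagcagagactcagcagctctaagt
Col4a3 and Col4a4, chr1:82586850-82586920 (plus strand): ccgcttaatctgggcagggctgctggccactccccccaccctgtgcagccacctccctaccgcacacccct
In the Col1a1 stretch the letters CCAAT, the box bound by the factor NF-Y, stand on the reverse strand at −99 and −73 from the start, and all 5 bases of the first and 1 of the second are in capitals. The Col18a1 stretch has the same letters at −106 from its start, outside the capitals.

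Among the 11 fibrillar chain genes, all 11 were open in replicate 1 and 10 in replicate 2. Col1a1, a chain of type I collagen and the main fibre protein of tendon and bone, had 4.34 in replicate 1 against 4.30 in replicate 2 (mean 4.32 ± 0.031, SD, n = 2), at percentiles 57.9 and 62.6 of all genes with a promoter peak. Its partner Col1a2 had 2.86 and 1.26, higher in replicate 1. The partner chains of this collagen thus differed more in replicate 2 than in replicate 1. Col3a1, the fine-fibre chain of pliable tissues, had 1.95 and 2.20, and its neighbour Col5a2, which nucleates fibrils with Col5a1, had 1.55 and 1.07. Col5a1 had 3.40 and 2.51, and Col5a3, a chain known from muscle and fat, had 3.19 and 2.34. Both were higher in replicate 1 and below the all-gene median in each library. Col27a1, a cartilage chain, had 2.21 and 2.50 at a peak centred 1327 and 1397 bp inside the gene, and Col11a2 had 2.19 and 2.11. Col11a1 (0.698 and 0.726) and Col24a1 (0.349 and 0.470, from different peaks) were among the weakest. Col2a1, the defining chain of cartilage, had a peak of 0.526 in replicate 1 alone, centred 3289 bp inside the gene near an internal start, and no peak at its 5′ end in either library. Of the cartilage markers, Comp and Sox9 had promoter peaks in both libraries and Acan had none.

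Of all members, Col1a1 had the largest share of its length covered by peaks in each library. It is a gene of 16.8 kb (chromosome 11, 94936224 to 94953042, plus strand). It held 20 peaks in replicate 1 and 16 in replicate 2, which covered 33.9% and 20.4% of its length, at percentiles 99.9 and 98.7 of genes in its class of length. A high rank was not particular to Col1a1. Within the class of longest genes, Col27a1 lay at percentiles 95.4 and 99.5 and Col16a1 at 96.1 and 93.0. Col1a2 held 2 and 1 peaks, covering 1.04% and 0.436%, and Col3a1 held 2 and 1, covering 1.04% and 0.472%. Of the peaks in and within 20 kb of Col1a1, 78.1% in replicate 1 and 47.6% in replicate 2 lay in 10 kb windows with 8 or more peaks of that library, against 2.10% and 5.82% of all peaks. Such windows also held, counted in the same way, 65.4% of the Col27a1 and 66.7% of the Col11a2 peaks in replicate 2 and 39.1% of the Col5a1 peaks in replicate 1.

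The type IV chains form the network of every basement membrane, and their genes lie in pairs that start head to head. All 6 were open in replicate 1 and 5 in replicate 2. The start region shared by Col4a1 and Col4a2, the pair found in nearly all basement membranes, had 2.19 in replicate 1 and 3.13 in replicate 2. For Col4a2 the strongest peak of replicate 1 was another, 2.35, centred 93106 bp into the gene and 1003 bp from an internal start. The start region of Col4a3 and Col4a4, chains of kidney, lung and nerve-muscle junction basement membranes, had 0.964 and 1.15. Col4a5 had 0.751 and 0.419, and Col4a6, its head-to-head partner on chromosome X, had 0.183 in replicate 1 alone. The order of the 3 pairs was the same in both libraries, with Col4a1 and Col4a2 highest.

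The type VI chain genes ranged from the strongest promoter of all to none called. Col6a1, Col6a2 and Col6a3 are the chains of the main muscle form, and changes in any of them are known to cause Bethlem myopathy and Ullrich muscular dystrophy. Col6a2 had the strongest promoter of all 44 genes, 8.03 in replicate 1 against 7.12 in replicate 2 (mean 7.58 ± 0.65, SD, n = 2), at percentiles 86.7 and 90.6. Col6a3 had 2.25 and 1.28. Col6a1 had 0.952 in replicate 1 and no promoter peak in replicate 2. In replicate 2, partner chains that assemble together thus included the highest promoter of the 44 and a gene with none. Of the other chains, Col6a5 had 1.01 and 0.778, Col6a6 had 1.15 and 0.837, at a different peak in each library, and Col6a4 had none.

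Of 9 annotated fibril-associated chain genes, 6 had a promoter peak in both libraries, and Col9a1 had one in replicate 2 alone (0.333, near an internal start). Col16a1, a minor chain that attaches to fibrils and filaments, had the next strongest promoter of the 44, 7.05 and 5.01, and its peak was centred within 10 bp of the 5′ end in both libraries. Col12a1, found at tendon and muscle interfaces, had 2.47 and 2.23. Col14a1 had 0.674 and 0.863, Col19a1 0.858 and 0.786, and Col22a1, the chain of the myotendinous junction, 1.05 and 0.735. The Col14a1 values come from different peaks. Col9a2 had 0.337 and 0.692, also from different peaks, and Col9a3 and Col20a1 had none.

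Among the 4 transmembrane chains, Col13a1, Col23a1 and Col25a1 had promoter peaks in both libraries and Col17a1, of skin hemidesmosomes, in neither. Col23a1 had 1.77 and 2.32 at its 5′ end. Col13a1, which muscle fibres place at the neuromuscular junction, had 1.32 and 1.52 at a peak centred 101107 bp into the gene, 391 bp past an internal start, and 0.781 and 1.00 at its 5′ end. Col25a1, needed for motor axons to enter muscle, had 1.06 and 0.966 at a peak just before an internal start that lies 49390 bp in, and 0.290 and 0.393 at the 5′ end. In both genes and both libraries the internal peak was the stronger. The multiplexins Col15a1 and Col18a1, basement membrane chains with heparan or chondroitin sulfate, also had peaks near internal starts. Col18a1 had 2.18 and 1.58 at a peak just before an internal start that lies 52602 bp in, while its 5′ end had 0.574 in replicate 1 and no peak in replicate 2. The strongest Col15a1 peak was centred 25490 bp in with 1.90 in replicate 1, and 678 bp in with 1.19 in replicate 2. The strongest peak of replicate 1 near the 5′ end had 0.858. The start nearest to the replicate 2 peak is that of the annotated gene Gm12426, and with peaks given to the nearest start alone Col15a1 had no promoter value shared by the libraries.

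Of the 6 remaining chains, Col8a1, a network chain of vessels and eye, had 0.586 and 0.914, and Col26a1 had 0.822 and 1.26 at a peak centred 127318 bp in, within 1 kb of an internal start. Col8a2 had 0.657 in replicate 1 alone. Col7a1, the anchoring fibril of skin, Col10a1, the mark of hypertrophic cartilage, and Col28a1 had none in either library. In all, 7 genes lacked a promoter peak in both libraries: Col6a4, Col7a1, Col9a3, Col10a1, Col17a1, Col20a1 and Col28a1. Several of these are known from skin or cartilage, but the cartilage chains Col27a1 (both libraries) and Col2a1 (replicate 1 alone) had promoter peaks. So did Col9a2 (both libraries) and Col9a1 (replicate 2 alone), chains of the same type as Col9a3.

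Promoter signals were also compared between the libraries. After centring log2 ratios, replicate 1 over replicate 2, on their median over shared promoters (0.12), 2 of 32 members lay beyond 2-fold (6.25%), against 1.98% of all shared promoters. Col1a2 was higher in replicate 1 by 1.07 on the centred log2 scale and Col9a2 was at −1.15. The Col9a2 values are those of different peaks, and neither Col1a2 nor Col9a2 kept a promoter peak in both libraries on the stricter list. The strongest peak was the same, by overlap, in 26 of the 32. The same share over all shared promoters is not given here, so whether 26 is many or few cannot be said.

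Distal open sites were more frequent around collagen chain genes than around protein-coding genes at large, and many of the collagen genes are long. At least 3 distal peaks were found at 37 of 44 in replicate 1 (84.1%, against 37.7% of all genes), at 22 in replicate 2 (against 21.2%) and at 22 in both (against 19.2%). Of the 44, 30 are longer than 45110 bp, the longest of 4 equal classes of all genes. In that class 17 of 30 had 3 or more in both (56.7%, against 38.2%), and among genes of 17425 to 45110 bp it was 3 of 10 (against 17.6%). When the strongest peaks were taken from each library in equal number, the counts were 27 in replicate 1 (against 25.6% of all genes), 22 in replicate 2 (against 21.2%) and 20 in both (45.5%, against 17.1%). Without the peaks in the dense windows, which was tried only after seeing the data, 22 members had 3 or more in both, against 18.5% of all genes. On the stricter list it was 11, or 25.0% against 8.28% of all genes, and 23.3% against 16.6% in the class of longest genes.

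**Figure D2:**
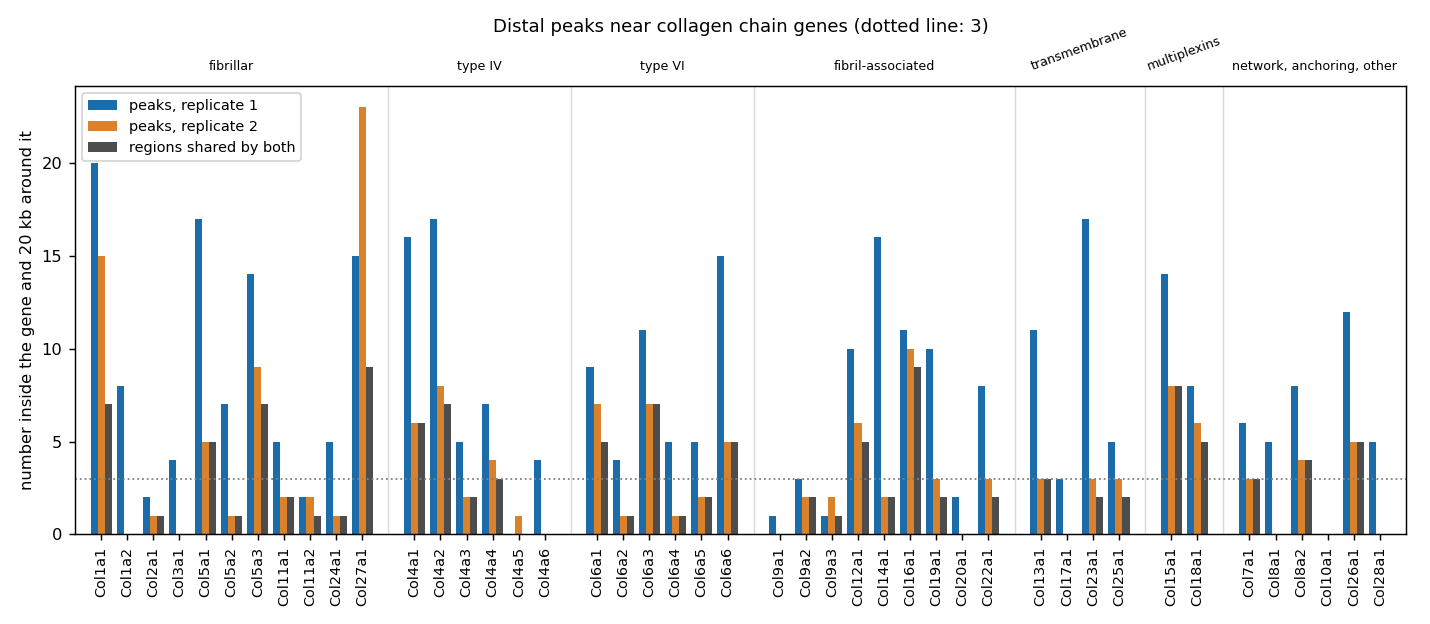
The number of distal peaks inside and within 20 kb of each gene (bars start at 0) in replicate 1 and replicate 2, and of distal regions with a peak in both libraries; the dotted line marks 3. Col27a1 and Col16a1 have the most shared regions, 9 each. Col1a2, Col3a1, Col8a1 and Col28a1 are among the 8 genes with bars in replicate 1 alone, the library with more peaks.

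Distal peaks were spread unevenly over the members. Col1a2 had 8 distal peaks in replicate 1 and 0 in replicate 2, Col3a1 4 and 0, Col4a6 4 and 0, Col8a1 5 and 0, and Col28a1 5 and 0. Col9a1, Col17a1 and Col20a1 also had 1 to 3 in replicate 1 and 0 in replicate 2. Col27a1 was the reverse, with 15 and 23. Replicate 1 had more peaks in all, and the median over all protein-coding genes was 2 distal peaks in replicate 1 and 1 in replicate 2. The share of all genes with distal peaks in replicate 1 alone is not given here. Regions with a peak in both libraries numbered 9 at Col27a1, 9 at Col16a1, 8 at Col15a1, and 7 each at Col1a1, Col4a2, Col5a3 and Col6a3. Col10a1 had 0 distal peaks in either library. In all there were 127 shared distal regions near 34 members, of which 81 lay in introns, 19 in exons and 27 between genes. For 109 of the 127 the nearest start of a coding gene was that of a collagen chain gene. Only regions inside or near a member were counted, so their place and nearest start depend in part on that choice. The same split over all shared distal regions, and the share of all genes with such a region, are not given here. Whether these counts are many or few thus cannot be said. A footprint lay in 115 of the 127 in both libraries (90.6%), against 84.0% of all shared distal regions. Their median signal was 1.27 in replicate 1 and 1.12 in replicate 2, against 1.02 and 0.940 for all 25245 shared distal regions, and 80 of 127 lay above the median of all.

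The placement of these regions differed between genes. Col6a1, with no promoter peak in replicate 2, had all 5 of its shared regions upstream, from 2.39 to 9.05 kb before the 5′ end. The nearest of them, in an exon of the annotated gene Gm48276, had 2.93 in replicate 1 and 3.87 in replicate 2, and the farthest had 2.08 and 3.27. Both were stronger than the Col6a1 promoter peak of replicate 1. Col1a1 had 3 upstream and 4 in its exons, the strongest 7.23 kb upstream. Col15a1 had 7 in introns, led by one 26.95 kb in, with 2.95 and 2.85, and another at 29.26 kb with 2.69 and 2.51. All of Col27a1's 9 lay inside the gene, the strongest 77.27 kb in with 3.41 and 2.86 and the next 93.61 kb in with 2.19 and 3.44. Col6a3 had 4 inside the gene, 1 before it and 2 beyond its end.

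**Figure D3:**
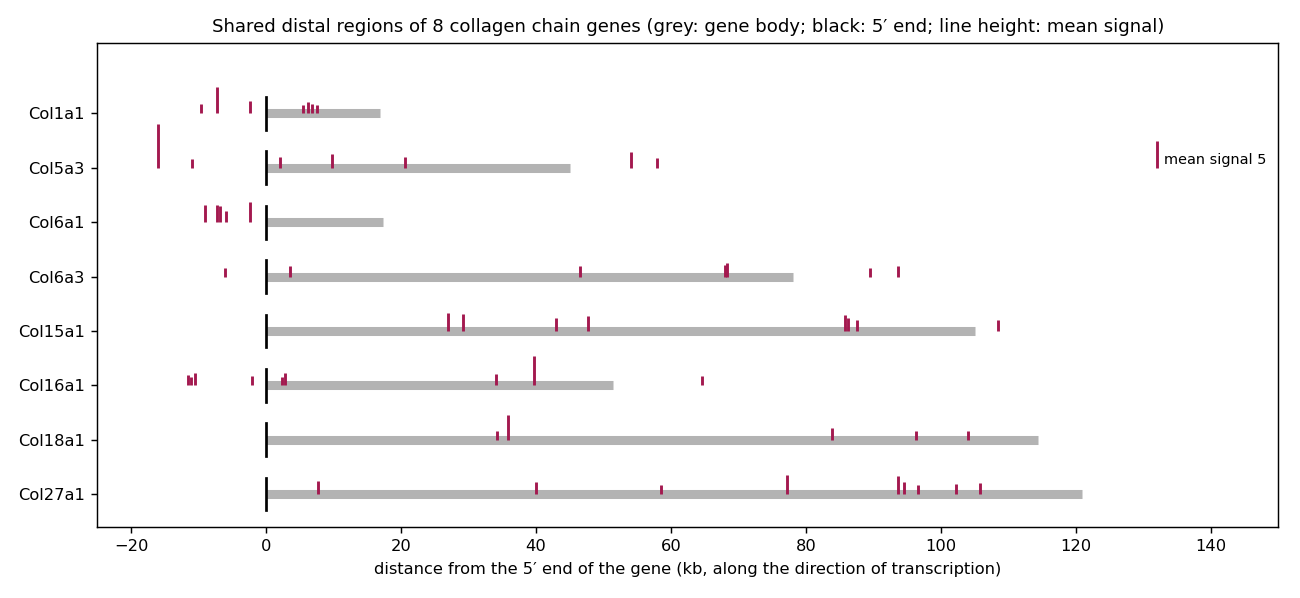
Distal regions shared by both libraries around 8 collagen chain genes, by distance from the 5′ end in kb along the direction of transcription; grey bars are the gene bodies, a black tick is the 5′ end, and the height of each red line is the mean signal of the libraries, with a line of 5 as the scale. Col6a1 has its 5 regions upstream, Col15a1 and Col27a1 have theirs inside the gene or just beyond it, and the tallest line is at −16.05 kb of Col5a3.

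The 10 strongest shared distal regions lay near 10 different members, and the strongest 6 are shown because their signals match or exceed those of most collagen promoters. Capitals again mark bases in footprints of both libraries, and all are on the plus strand of mm10.
Col5a3, at −16.05 kb, chr9:20831001-20831240 (plus strand): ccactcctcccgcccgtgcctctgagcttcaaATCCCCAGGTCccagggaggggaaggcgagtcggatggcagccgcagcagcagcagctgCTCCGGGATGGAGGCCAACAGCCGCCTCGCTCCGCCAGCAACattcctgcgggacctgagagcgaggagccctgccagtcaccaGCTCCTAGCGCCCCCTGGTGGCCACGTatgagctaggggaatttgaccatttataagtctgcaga
Col16a1, intron, 39.70 kb in, chr4:130087441-130087640 (plus strand): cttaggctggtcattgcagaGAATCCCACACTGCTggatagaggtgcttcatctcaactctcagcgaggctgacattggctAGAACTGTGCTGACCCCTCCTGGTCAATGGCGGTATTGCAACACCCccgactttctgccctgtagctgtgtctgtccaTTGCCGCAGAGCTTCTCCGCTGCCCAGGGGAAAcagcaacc
Col23a1, intron, 249.96 kb in, chr11:51539761-51539940 (plus strand): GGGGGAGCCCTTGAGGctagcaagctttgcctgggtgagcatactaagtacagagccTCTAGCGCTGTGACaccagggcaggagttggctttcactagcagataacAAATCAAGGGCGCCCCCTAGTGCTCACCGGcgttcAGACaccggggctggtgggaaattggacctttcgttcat
Col1a1, 7.23 kb upstream (the last 300 bases of the region), chr11:94928841-94929140 (plus strand): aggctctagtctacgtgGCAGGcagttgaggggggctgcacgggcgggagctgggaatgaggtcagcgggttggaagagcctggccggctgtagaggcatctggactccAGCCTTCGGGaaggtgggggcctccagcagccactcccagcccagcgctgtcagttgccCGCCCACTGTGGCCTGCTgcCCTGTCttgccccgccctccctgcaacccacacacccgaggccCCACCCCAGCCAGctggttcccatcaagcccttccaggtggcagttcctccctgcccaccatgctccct
Col18a1, intron, 35.79 kb in, chr10:77130641-77130860 (plus strand): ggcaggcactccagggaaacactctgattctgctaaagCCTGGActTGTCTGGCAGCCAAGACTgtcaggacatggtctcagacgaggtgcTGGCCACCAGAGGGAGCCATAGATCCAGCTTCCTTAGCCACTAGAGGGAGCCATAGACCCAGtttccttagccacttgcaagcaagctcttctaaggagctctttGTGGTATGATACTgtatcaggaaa
Col8a2, intron, 23.28 kb in, chr4:126309981-126310160 (plus strand): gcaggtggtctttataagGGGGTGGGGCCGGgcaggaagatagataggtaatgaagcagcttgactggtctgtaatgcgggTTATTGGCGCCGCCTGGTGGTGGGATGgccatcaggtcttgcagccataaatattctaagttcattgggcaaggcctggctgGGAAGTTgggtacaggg
The region near Col5a3 had 8.83 in replicate 1 and 8.83 in replicate 2, and the nearest coding start is that of Rdh8, 12.6 kb away. The Col16a1 region had 3.73 and 7.35, higher in replicate 2, and the Col23a1 region 5.10 and 5.36. Col1a1's had 5.69 and 3.83, higher in replicate 1, Col18a1's 4.24 and 4.73, and Col8a2's 2.84 and 4.10. The other 4 of the 10 lay near Col6a1 and Col27a1 (above), in an intron of Col26a1 92.19 kb in (2.41 and 3.70), and 1.52 kb before Col13a1 (2.93 and 2.97).

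After these sequences had been seen, the letters CANNAGNNGG, part of the site of CTCF, a zinc finger protein known for bounding chromosome loops, were searched for on both strands within 150 bp centred on each peak. They occur in the printed Col5a3, Col23a1, Col18a1 and Col8a2 regions. In the Col5a3 region the match runs from base 186 to 195, in the Col23a1 region from 119 to 128 (and again, outside the capitals, from 79 to 88), in the Col8a2 region from 91 to 100, and in the Col18a1 region from 96 to 105 and from 130 to 139. All 10 bases of the other matches are in capitals. Of the 10 strongest regions, 7 hold the letters, against 39.4% of the 1389 shared distal regions of the genome with at least the same signal. The letters were chosen after the strongest of these regions had been seen, so this contrast is not a test. Among the 7, the match in the Col27a1 region had 0 bases in footprints of both libraries. Over all 127 it was 35.4%, against 32.8% of all shared distal regions, which is near the background. A match is a description and not a site, and the members were few.

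Other motifs were searched in the same way. The letters TGANTCA (AP-1) were found in 11.8% of the 127 distal regions and 7.43% of all, TGTGGT (RUNX) in 15.7% and 10.6%, and GGAATG (TEAD) in 19 of the 127 and 9.67% of all. CAGCTG, an E-box that muscle regulators bind, was in 28 of the 127 and 21.7% of all. ACAATG (SOX) was in 3.15% and 5.23%. Median GC content was 55.3% and 54.7%. The 32 promoters gave 29 distinct regions, where GGGCGG (SP/KLF) was in 41.4% against 57.1% of 12399 promoter regions, CCAAT in 27.6% against 27.2%, and TATAAA (the TATA box) in 6.90%, or 2 regions, against 1.90%. Their median GC content was 62.7% against 66.7%. AP-1, RUNX, SOX, MEF2 and NFI letters were in 0 of the 29, and in 1.87%, 4.73%, 2.31%, 0.395% and 0.0161% of the 12399.

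Genes that make, process, bind or degrade collagen were read in the same way from 5 lists. Of 54 genes, 45 were open in replicate 1, 43 in replicate 2 and 42 in both, against the same 63.0% of all protein-coding genes. Folding and modification enzymes of the endoplasmic reticulum were open at 17 of 18 in both, with median signals of 4.26 and 3.62, the highest of the 5 lists. Fibril-binding proteoglycans were open at 3 of 8, with medians of 1.04 and 0.786, the lowest. Processing and crosslinking enzymes were open at 10 of 11, receptors at 8 of 10 and degradation enzymes at 4 of 7.

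Among the folding genes, P4hb and P4ha1, the subunits of prolyl 4-hydroxylase, which stabilises the triple helix, had 13.0 and 9.25 and 12.2 and 8.11. P3h1, a prolyl 3-hydroxylase, had 9.33 and 7.68 and its partner Ppib, a proline isomerase, 8.98 and 6.65, while the third member of their complex, Crtap, had 0.905 and 1.24. Serpinh1, the collagen chaperone HSP47, had 4.26 and 3.72. P4hb, P4ha1 and P3h1 exceeded every collagen chain promoter in both libraries, and Ppib did so in replicate 1 alone. Lox, which crosslinks fibrils, had 1.48 and 1.35, and Loxl3 had 5.54 and 6.08. Of the collagen receptors, the integrin chain Itgb1, shared by many matrix receptors, had 6.64 and 4.70, and the collagen-binding kinase Ddr2 had 1.94 and 2.03. Lair1 and Gp6, receptors of blood cells and platelets, had no promoter peak, and nor did the proteases Mmp8, Mmp13 and Ctsk. Decorin (Dcn), a fibroblast proteoglycan, had 1.04 and 0.786.

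**Figure D4:**
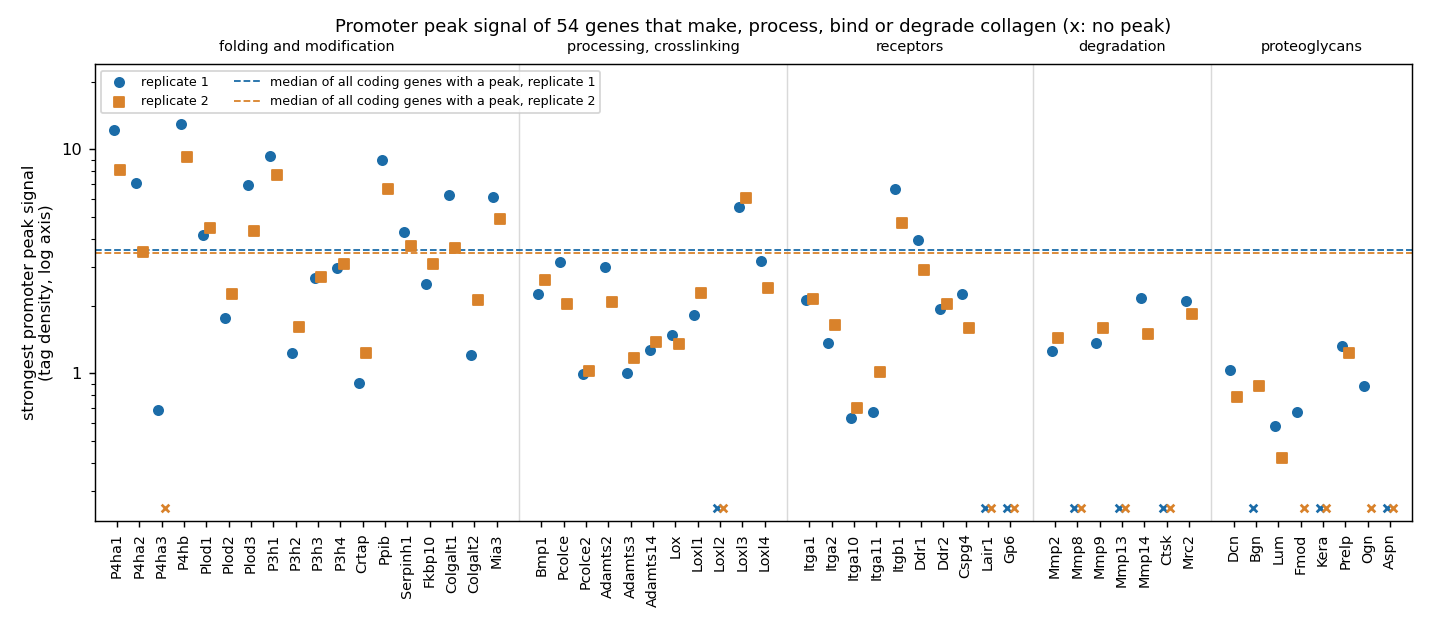
The strongest promoter peak signal (tag density, log axis) of 54 companion genes of collagen in 5 lists, with a circle for replicate 1, a square for replicate 2 and a cross for no promoter peak; dashed lines are the medians of all coding genes with a promoter peak (3.57 and 3.43). Folding genes reach 13.0 and 9.25 at P4hb, and no proteoglycan gene reaches the lines.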

How the data were processed

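DNase-seq libraries of the gastrocnemius of 2 male mice (replicates 1 and 2, 1 group) were read from lists the authors deposited on build mm10, per the labels. No source used here names the aligner or the callers. The deposited signal of a peak was always a whole multiple of a step (within 0.1), read from the values as tags scaled to library size. The authors' per-position q-value files list positions below 0.05. Footprints carry a constant and were not ranked. The longer of 2 peak lists per library was used, the shorter (61099 and 36573 peaks) being the stricter alternative.

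Promoters, distal peaks and gene lengths come from GENCODE M21 over 21 chromosomes, with 55413 annotated genes. Peaks with an overlap of at least 1 bp were taken as shared. Counting and sequence reading used Python 3.11.15, pandas 2.3.3 and pysam 0.24.0, checked on simulated data. Members are genes, not replicates, so results are counts and medians beside the same values over all protein-coding genes, with no p-values. Values are given for the 10 strongest promoters, genes found in 1 library only, the major muscle chains, the genes with the most shared distal regions, the 10 strongest of those regions, and genes beyond 2-fold; further genes are named as examples. The members and lists were chosen with earlier results of these data known. Instrument models are named for replicate 1 only.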

Additional observations from a re-analysis of the deposited data

How the results depend on the processing

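The count of collagen chain genes open at a promoter in both libraries ranged from 24 to 35, and replicate 1 alone had 36. The lowest, on the stricter list, was 54.5% against 57.7% of all coding genes, the reverse of the order on the longer list (72.7% against 63.0%). The count with a footprint ranged from 28 to 35. Companion genes open in both libraries ranged from 39 to 43, and replicate 1 alone had 45. The median of the mean promoter signal was 1.48, and became 2.04 with promoters of 2500 bp, 1.06 with the 5′ end of the gene alone and 1.96 on the stricter list. Leaving out 1 library gave 1.24 and 1.26. Genes with 3 or more distal peaks in both libraries (22) became 11 on the stricter list and 34 with 1 or more peaks as the limit, and leaving out each library gave 22 to 37, the 37 being replicate 1 alone. Genes beyond 2-fold (2) became 0 on the stricter list and 1 with the same number of strongest peaks. Shared distal regions (127) became 65 on the stricter list. Of the single promoters, 8 had no value on the stricter list, Col1a2, Col6a3 and Col22a1 among them. With the 5′ end alone Col18a1 and Col27a1 had no value, and 4 moved: Col13a1, Col15a1, Col25a1 and Col26a1. Giving a peak to the nearest start alone and leaving out dense windows were chosen after the data were seen. The cause of these changes was not tested. Absence means only that no peak was called at this depth.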
